A study of Mus musculus with 3 samples.

Results

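The transcription factors at the core of naive pluripotency were examined in mouse blastocysts of 2 strains. The set comprised 10 genes, Pou5f1, Nanog, Sox2, Klf4, Klf2, Klf5, Esrrb, Tfcp2l1, Zfp42 and Sall4, chosen by gene symbol from the 24063 genes of the count table. All 10 were present once and all 10 passed the filter on low counts. The study asked whether embryos of the autoimmune diabetes-prone NOD strain already differ in gene expression from those of C57BL/6 (B6), an inbred strain that does not develop the disease. RNA-Seq libraries were made with the SMART-Seq V4 low-input protocol, in which the RNA of very few cells is copied over its whole length and the cDNA is amplified by PCR. There was 1 B6 library and there were 2 NOD libraries, called NOD 1 and NOD 2, all from untreated embryos with no engineered allele. The labels name whole blastocysts as the input, whereas the study's methods describe single inner cell masses (ICMs) freed by immunosurgery, and the labels give no embryonic day. The labels do not say whether the NOD libraries came from separate litters, so the p-values measure only the spread between these libraries, which may be technical.

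Naive pluripotency is the state of the preimplantation epiblast, the part of the ICM that gives rise to the embryo proper, and of mouse ES cells cultured with inhibitors of MEK and GSK3. A network of factors that bind each other's regulatory elements maintains it. Pou5f1 (Oct4), Sox2 and Nanog form its centre, and the Klf factors, Esrrb and Tfcp2l1 connect it to LIF, WNT and MEK signalling. Several of these factors are not restricted to the epiblast, since Klf5 and Esrrb also act in trophectoderm or its stem cells, and Sall4 in primitive endoderm.

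Total counts were 12505685 for B6, 33891715 for NOD 1 and 36171013 for NOD 2, so the B6 library was the shallowest. Levels are given as CPM, counts relative to the library size after scaling by edgeR's TMM factors, and levels of different genes are compared per kilobase of listed transcript (FPKM on the same scale). A gene with 1 count had a level of 0.0734 CPM in the B6 library, 0.0303 CPM in NOD 1 and 0.0294 CPM in NOD 2. Calls required an adjusted p under 0.05 in edgeR's quasi-likelihood test together with a change of at least 2-fold. Because B6 is a single library, the spread came from NOD only, and strain and library cannot be told apart. With these numbers of libraries, the smallest p that an exact permutation test of a gene could reach is 0.333.

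The 10 factors did not shift together between the strains. Zfp42 was higher in NOD, and Sox2, Klf5 and Sall4 were lower. The other 6 were not called. Thus 4 of 10 factors were called, where 17.7% of the 14456 genes tested were called in either direction. The 1 factor called higher compares with 10.3% of all genes tested, and the 3 called lower with 7.39%. This split depended on the scaling: with total counts only, 0 factors were called higher and 4 lower, and over all genes 47.8% of the calls were higher in NOD in place of 58.1%. Without regard to any test, Pou5f1, Nanog and Zfp42 were above B6 in both NOD libraries, 3 of 10 where 45.3% of all genes tested were. The remaining 7 were below B6 in both NOD libraries, where 39.4% of all genes tested were. The median log2 fold change of the 10 factors, NOD minus B6, was -1.19, against 0.26 for all genes tested. The latter value was 0.07 with scaling by total counts only. Relative to the median of all genes, the factors ranged from -2.96 for Sox2 to 1.34 for Zfp42, and each factor kept its sign. No test over the set was made, because its members were proposed with results of these data known.

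**Figure D1:**
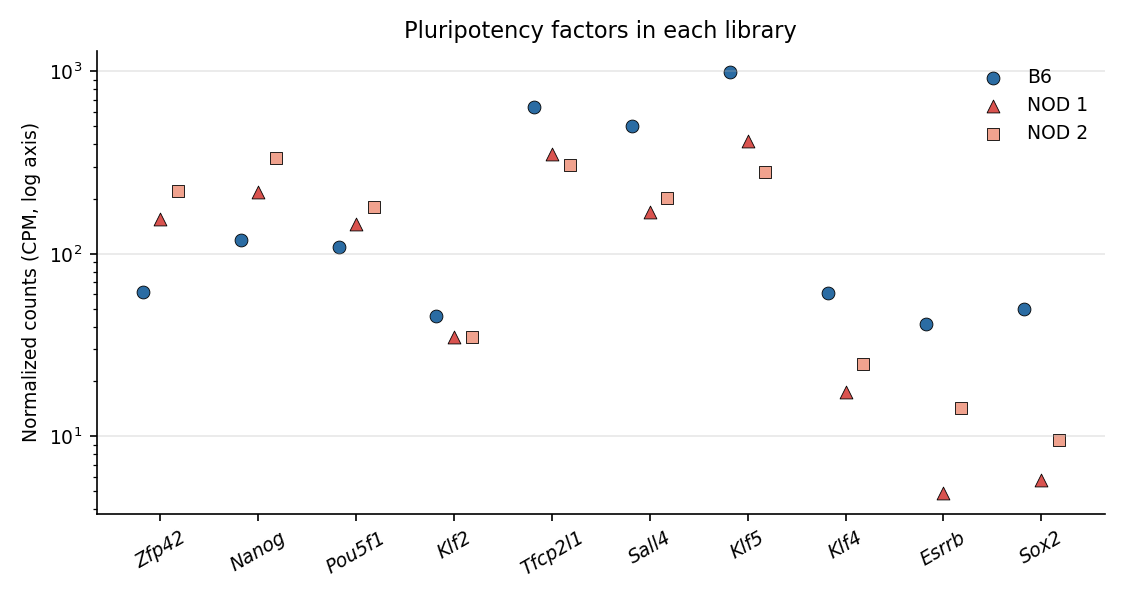
Normalized counts (CPM, log axis) of the 10 factors in the B6 library (circle) and in NOD 1 (triangle) and NOD 2 (square), each symbol being 1 library. Zfp42, Nanog and Pou5f1 lie above B6 in both NOD libraries, the other 7 lie below, and Sox2 shows the widest gap, from 49.8 CPM in B6 to 5.75 and 9.61 CPM in NOD.

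Pou5f1 encodes the POU-domain factor Oct4, without which the ICM does not become pluripotent. It lies on chromosome 17 (NM_013633, mm10, 35506032 to 35510777, plus strand). Its level was 109 CPM in B6, 147 CPM in NOD 1 and 181 CPM in NOD 2. Both NOD libraries were above B6, but the mean of 164 ± 24.1 CPM (SD, n = 2) was only 1.50 times the B6 level. The log2 fold change of 0.58 ± 0.28 (SE) was not called by edgeR (adjusted p = 0.195), nor by any of the 8 alternative tests. Of its 50-base words, 15.9% also occur in the transcripts of Gm19553 or Gm5712, so some of its reads could belong to these genes.

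Nanog, a homeodomain factor that separates epiblast from primitive endoderm, lies on chromosome 6 (NM_001289828, 122707565 to 122714633, plus strand). It was counted at 118 CPM in B6, 217 CPM in NOD 1 and 336 CPM in NOD 2. The NOD libraries lay apart from each other as well as from B6, with a mean of 277 ± 84.3 CPM (SD, n = 2). The log2 fold change of 1.23 ± 0.36 (SE) did not pass in edgeR (adjusted p = 0.0752), whereas DESeq2 called it (adjusted p = 0.0045).

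Sox2 encodes the HMG-box partner of Oct4 and consists of 1 exon on chromosome 3 (NM_011443, 34650005 to 34652460, plus strand). Its counts were 679 for B6, 190 for NOD 1 and 327 for NOD 2, which corresponds to 49.8, 5.75 and 9.61 CPM. At 190 counts the exact Poisson interval (95%) runs from 163.9 to 219.0 counts, so counting error of reads was small beside the difference. Error from the PCR amplification before sequencing is not covered by this interval. The B6 level was 6.49 times the NOD mean of 7.68 ± 2.73 CPM (SD, n = 2). Sox2 was called lower by edgeR, with a log2 fold change of -2.70 ± 0.48 (SE) and an adjusted p of 0.0327. It was the largest difference among the 10 factors. Sox2ot, the long noncoding RNA whose span contains Sox2, had 0 counts in every library, and no 50-base word of Sox2 was found in another gene. Per kilobase, Nanog stood at 2.64 times the Sox2 level in B6 but at 42.1 times in NOD 1 and 39.0 times in NOD 2.

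Oct4 and Sox2 bind an octamer and a SOX word, often side by side. Promoters from RefSeq (GRCm38.p6, 250 bases before to 50 after the start) were held for 8 of the 10 factors, and these letters were searched on both strands. The octamer core ATGCAAA occurred in Nanog, Sox2 and Zfp42, 3 of 8, and in 4.63% of 32851 promoters. The SOX word CATTGT occurred in Nanog and Esrrb, and in 12.6% of all promoters. The 3 stretches around the octamer core are shown because these genes include Zfp42, the factor called higher in NOD, and Sox2, the factor with the largest decrease. Capitals mark the octamer core and, in Nanog, also the SOX word, each read in the direction of the gene.
Nanog, chr6:122707374-122707460, plus strand: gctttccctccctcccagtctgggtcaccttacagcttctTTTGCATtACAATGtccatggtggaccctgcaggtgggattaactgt
Sox2, chr3:34649856-34649942, plus strand: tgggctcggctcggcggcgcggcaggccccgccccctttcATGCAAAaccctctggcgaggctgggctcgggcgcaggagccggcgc
Zfp42, chr8:43307148-43307234, minus strand: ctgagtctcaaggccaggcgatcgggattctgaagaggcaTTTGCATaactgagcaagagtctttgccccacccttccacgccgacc
Distances are counted from the start of the RefSeq entry, which for Sox2 is not the start listed in the count table. In Nanog the octamer core began 151 bases before the start, in reverse orientation, and the SOX word followed after 1 base. In Sox2 it began 99 bases before the start in forward orientation, and in Zfp42 185 bases before the start in reverse. Zfp42 alone of the 8 held the full octamer ATGCAAAT, found in 1.74% of promoters, and the Klf word GGGTGTGG, found in 3.56%. The word AAGGTCA, bound by Esrrb, was in none of the 8 and in 4.72% of all promoters. A match describes letters only, and Zfp42 and Sox2 differed in opposite directions between the strains.

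Klf5, Klf4 and Klf2 are zinc-finger factors of the Krüppel-like family that share GC-rich target sites and can partly replace each other in ES cells. Klf5, which is also needed in trophectoderm, had the highest FPKM on the listed transcript length in each library. It lies on chromosome 14 (NM_009769, 99298691 to 99313409, plus strand). It was counted at 993 CPM in B6, 414 CPM in NOD 1 and 281 CPM in NOD 2. The B6 level was above both NOD libraries and 2.86 times their mean of 348 ± 94.7 CPM (SD, n = 2). Klf5 was called lower by edgeR (log2 fold change -1.51 ± 0.29, SE; adjusted p = 0.0354).

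Klf4, a factor of the original reprogramming cocktail that responds to LIF, lies on chromosome 4 (NM_010637, 55527137 to 55532475, minus strand). Its level was 61.3 CPM in B6, 17.4 CPM in NOD 1 and 24.9 CPM in NOD 2. Despite a B6 level 2.90 times the NOD mean of 21.2 ± 5.28 CPM (SD, n = 2), it was not called by edgeR (log2 fold change -1.54 ± 0.40, SE; adjusted p = 0.0609). DESeq2 called it (adjusted p = 0.00996).

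Klf2 on chromosome 8 (NM_008452, 72319062 to 72321654, plus strand) was the steadiest of the 3. It was counted at 45.4 CPM in B6, 35.1 CPM in NOD 1 and 35.0 CPM in NOD 2. The NOD libraries were practically equal and lay below B6, with a log2 fold change of -0.37 ± 0.35 (SE) that edgeR did not call (adjusted p = 0.453).

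Esrrb is an orphan nuclear receptor that GSK3 inhibition releases from repression in ES cells. It lies on chromosome 12 (NM_001159500, 86361117 to 86521628, plus strand). It had 563 counts in B6, 163 counts in NOD 1 and 486 counts in NOD 2, equal to 41.3, 4.93 and 14.3 CPM. The NOD libraries differed from each other more than for any other factor, and their mean was 9.61 ± 6.61 CPM (SD, n = 2). The log2 fold change of -2.10 ± 0.69 (SE) was not called by edgeR (adjusted p = 0.0943). With NOD 1 alone it was -3.07, and with NOD 2 alone -1.53.

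Tfcp2l1 belongs to the CP2 and grainyhead family and is a target of LIF and Stat3 in ES cells. It lies on chromosome 1 (NM_023755, 118627945 to 118685168, plus strand). It was counted at 636 CPM in B6, 352 CPM in NOD 1 and 308 CPM in NOD 2. The NOD libraries lay close together at 330 ± 31.5 CPM (SD, n = 2), below B6. In edgeR the adjusted p was 0.0474, but the log2 fold change of -0.95 ± 0.22 (SE) was under 2-fold and so was not called. It exceeded 2-fold, at -1.13 with an adjusted p of 0.0425, when edgeR scaled the libraries by total counts only.

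Zfp42 encodes Rex1, a zinc-finger protein related to YY1 and a widely used marker of the naive state that ES cells can do without. It lies on chromosome 8 (NM_009556, 43295067 to 43307009, minus strand). It was counted at 61.6 CPM in B6, 155 CPM in NOD 1 and 221 CPM in NOD 2. The mean of 188 ± 46.7 CPM (SD, n = 2) was 3.04 times the B6 level. It was the only factor of the 10 called higher by edgeR (log2 fold change 1.61 ± 0.35, SE; adjusted p = 0.0441). The pseudogene Zfp42-ps1 contains 9.52% of its 50-base words.

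Sall4, a zinc-finger factor that associates with Oct4 and Nanog, lies on chromosome 2 (NM_175303, 168748332 to 168767201, minus strand). It was counted at 500 CPM in B6, 169 CPM in NOD 1 and 203 CPM in NOD 2. The B6 level was 2.69 times the NOD mean of 186 ± 24.1 CPM (SD, n = 2). Sall4 had the lowest adjusted p of the 10 in edgeR, 0.0287, with a log2 fold change of -1.43 ± 0.23 (SE). Of its 50-base words, 4.86% also occur in Gm14261.

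**Figure D2:**
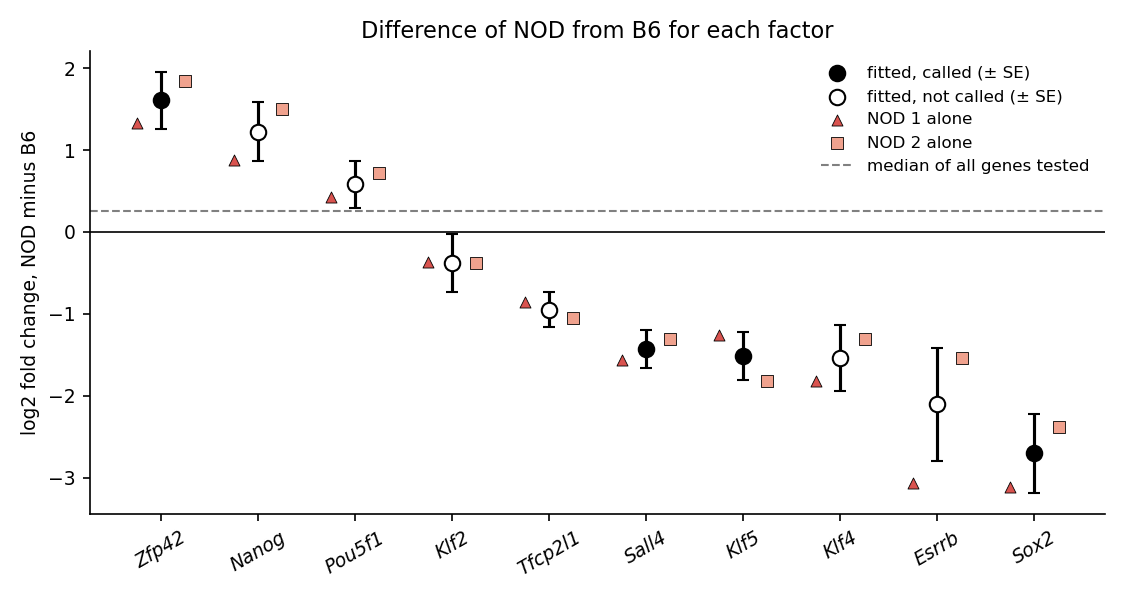
Log2 fold change, NOD minus B6, of the 10 factors, with the fitted value ± SE (circles, filled where called), NOD 1 alone (triangles) and NOD 2 alone (squares). The dashed line is the median of all genes tested, 0.26. The filled circles are Zfp42 at 1.61, Sall4 at -1.43, Klf5 at -1.51 and Sox2 at -2.70, and Esrrb has the widest distance between the NOD libraries.

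The direction of every factor was kept in 10 of 10 alternative analyses, but the calls depended on the test and on the filter on low counts. With limma-voom, or in edgeR with genes of low counts kept, none of the 10 factors was called, although 8 and 7 of them had an unadjusted p under 0.05. DESeq2 called 7, adding Nanog, Klf4 and Esrrb, and it also called more genes in all, 4386 of 13189 with an adjusted p against 2552 of 14456. The call of Zfp42 was also lost with total counts only (adjusted p = 0.0561 in edgeR) and with upper-quartile factors (adjusted p = 0.0600 in edgeR).

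Per kilobase, the factors spanned a wide range in each library. On the listed length Klf5 was highest in all 3 libraries, at 578, 241 and 163 FPKM in B6, NOD 1 and NOD 2. Among all genes with a count it was at place 135 in B6, place 569 in NOD 1 and place 918 in NOD 2. At the other end, Esrrb had 9.63, 1.15 and 3.33 FPKM and was lowest in all 3 on the listed length. The highest factor was at 60.0 times the lowest in B6, 209.8 times in NOD 1 and 49.1 times in NOD 2.

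In B6, Klf5 was followed by Sall4 at 98.7 FPKM, Pou5f1 at 81.2, Tfcp2l1 at 68.7, Nanog at 53.7, Zfp42 at 34.3 and Klf2 at 25.1. Sox2 and Klf4 had nearly the same level, at 20.3 and 20.2 FPKM. The B6 order has no replicate spread against which to read it. In NOD, Klf5 at 202 ± 55.1 FPKM (SD, n = 2) was followed by Nanog at 126 ± 38.2, Pou5f1 at 122 ± 17.9 and Zfp42 at 104 ± 26.0. The means of these last 3 did not differ beyond the spread of the NOD libraries, although Zfp42 was below Nanog and Pou5f1 in each of them. Sall4 at 36.7 ± 4.75 FPKM and Tfcp2l1 at 35.7 ± 3.40 FPKM came next and did not differ beyond it either. Klf2 followed at 19.4 FPKM with both NOD libraries nearly equal, and Klf4 at 6.97 ± 1.74 FPKM. Sox2 at 3.13 ± 1.11 FPKM and Esrrb at 2.24 ± 1.54 FPKM were again within their spread, with Sox2 above Esrrb in each NOD library.

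Sall4 moved from the second place in B6 to places 6 and 5 in NOD 1 and NOD 2, and Zfp42 from 6 to 4 in both. Nanog moved from 5 to 3 and 2. These places rest on the listed transcript lengths, and 16 of 30 places changed when coding length was used instead. Klf5 then held the first place in B6 and NOD 1 and place 4 in NOD 2, where Nanog came first, and Sox2 took the last place from Esrrb in NOD 2. Pou5f1 was then at place 5 in each library, with Zfp42 above it in both NOD libraries. Reads were counted over whole exons, so coding length is not matched to the counts and gives no better order.

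Set against Pou5f1 of the same library, 7 of the other 9 factors stood lower in both NOD libraries than in B6, and Nanog and Zfp42 stood higher. Klf5 stood at 7.12 times Pou5f1 in B6, 2.22 times in NOD 1 and 1.22 times in NOD 2. Sall4 went from 1.22 times in B6 to 0.306 and 0.298 times, and Tfcp2l1 from 0.846 to 0.350 and 0.248 times. Zfp42 went the other way, from 0.423 to 0.791 and 0.916 times Pou5f1. Such ratios within a library do not depend on its scaling, but their size rests on the listed lengths. They show unequal change and not which gene changed. Summed over the 10 factors, the level was 2616 CPM in B6, 1517 CPM in NOD 1 and 1612 CPM in NOD 2.

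Each factor was also compared with its own protein family, taken from a list of 58 paralogs written by hand. Of these, 42 were tested, 2 were called higher and 3 lower, where 17.7% of all genes tested were called, with a median log2 fold change of 0.02. Pou5f1 made up 82.2% of the summed FPKM of 15 POU genes in B6 and 92.1% and 93.4% in the NOD libraries. The paralog with the highest mean over the 3 libraries, Pou6f1, had 8.79 FPKM in B6 and 1.30 and 2.62 FPKM in NOD, where Pou2f3 was above it. Sall4 made up 96.2%, 92.8% and 89.2% of the 4 SALL genes, with Sall1 next at 3.86, 2.56 and 4.26 FPKM, so both families were carried by the pluripotency factor.

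The SOX family was different. Sox2 made up 35.4% of the 19 SOX genes in B6 but 3.49% in NOD 1 and 5.17% in NOD 2. Sox15, an early-embryonic paralog that can bind Sox2 sites together with Oct4, was the highest SOX gene in all 3 libraries, with 20.6 FPKM in B6 and 52.6 and 65.4 FPKM in the NOD libraries. In B6 Sox2 was nearly level with it at 20.3 FPKM, a gap that 1 library cannot resolve. The log2 fold change of Sox15, 1.52 ± 0.39 (SE), narrowly missed the threshold in edgeR (adjusted p = 0.0584). Sox12 was called lower by edgeR, from 20.0 CPM to 2.60 and 1.09 CPM (log2 fold change -3.43 ± 0.74, SE; adjusted p = 0.0438).

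Klf5 alone made up 78.9% of the summed FPKM of 17 KLF genes in B6, 61.8% in NOD 1 and 55.9% in NOD 2, and the 3 Klf factors together 85.1%, 68.3% and 65.3%. Klf6 was the paralog with the highest mean over the 3 libraries, with 21.9, 40.1 and 23.2 FPKM, although Klf9 was above it in B6. The paralogs called by edgeR were Klf3, Klf11 and Klf13. Klf3, for which 6.92% of the 50-base words are shared, rose from 8.29 CPM to 44.0 and 38.9 CPM (adjusted p = 0.0349), and Klf11 from 8.88 CPM to 34.4 and 39.5 CPM (adjusted p = 0.0426). Klf13 fell from 137 CPM to 40.9 and 44.1 CPM (adjusted p = 0.0320). The calls of Klf11 and Sox12 were lost with upper-quartile factors, and that of Klf11 also with total counts only.

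Among the 3 estrogen-related receptors, Esrrb made up 29.3% in B6, 18.2% in NOD 1 and 48.9% in NOD 2. Esrra was the highest in every library, but in NOD 2 it was nearly level with Esrrb, at 3.47 against 3.33 FPKM. Esrra, a regulator of mitochondrial genes, was called lower by edgeR, from 51.8 CPM to 11.5 and 7.76 CPM (log2 fold change -2.43 ± 0.44, SE; adjusted p = 0.0329). Tfcp2l1 made up 76.2%, 49.7% and 53.9% of 6 genes of the TFCP2 and GRHL group, in which its paralog Ubp1 had 12.0, 20.1 and 17.6 FPKM. Zfp42 made up 52.9%, 72.2% and 82.5% of the YY1 family of 3, beside Yy1 at 27.4, 32.0 and 20.6 FPKM.

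**Figure D3:**
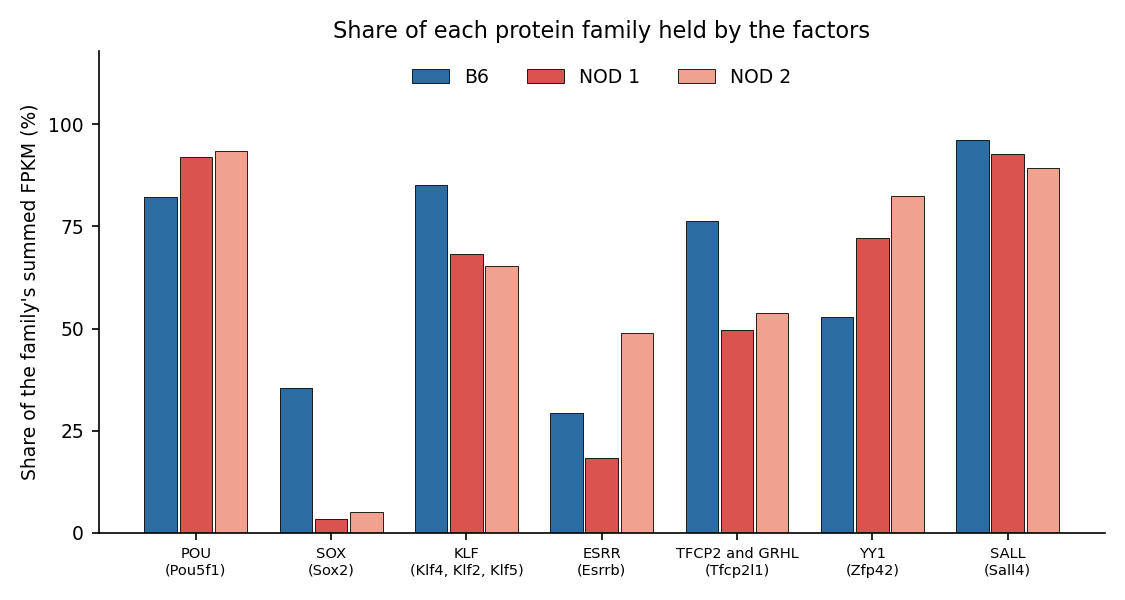
Share (%) of the summed FPKM of each protein family held by the pluripotency factors named under each family, with 1 bar per library (B6, NOD 1, NOD 2) and no error bars. Pou5f1 and Sall4 hold over 80% of their families in every library, whereas the Sox2 share is 35.4% in B6 and 3.49% and 5.17% in NOD, and the Zfp42 share lies between 52.9% and 82.5%.

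A wider list of 35 pluripotency-associated genes, which holds none of the 10 factors, showed changes in both directions. Of 33 tested, 5 were called higher and 4 lower, with 15 above and 13 below B6 in both NOD libraries and a median log2 fold change of 0.12. The shares above and below were close to those of all genes tested, 45.3% and 39.4%, and the share called was 9 of 33 against 17.7%. Dppa3 (Stella), a maternal factor that protects DNA methylation in the early embryo, rose from 1741 CPM in B6 to 5188 and 6125 CPM in NOD (log2 fold change 1.70 ± 0.19, SE; adjusted p = 0.0205 in edgeR). Dppa5a, an RNA-binding protein of ES cells, rose from 848 CPM to 2251 and 2965 CPM (adjusted p = 0.0259 in edgeR). Of the 50-base words, 17.7% in Dppa3 and 38.6% in Dppa5a also occur in related genes, which makes their counts less certain.

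Utf1, a chromatin-associated factor that Oct4 and Sox2 activate in ES cells, rose from 76.1 CPM to 216 and 231 CPM (adjusted p = 0.0297 in edgeR). This direction was opposite to that of Sox2 in the same libraries. Gdf3, a ligand of the TGF-beta family, rose from 38.2 CPM to 185 and 130 CPM (adjusted p = 0.0339 in edgeR). Tdgf1 (Cripto), the co-receptor of Nodal, was the last of the 5 and was named after its values were seen. It rose from 1.47 CPM, or 20 counts, to 30.3 and 48.6 CPM (adjusted p = 0.0231 in edgeR), with 12.5% of its 50-base words shared.

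Among the 4 called lower, Tbx3, a T-box factor downstream of LIF in ES cells, fell from 316 CPM to 42.2 and 41.9 CPM, the largest decrease of the list (log2 fold change -2.91 ± 0.25, SE; adjusted p = 0.0196 in edgeR). Nr5a2, a nuclear receptor that binds the Pou5f1 promoter, fell from 170.1 CPM to 56.8 and 46.0 CPM (adjusted p = 0.0310 in edgeR). Jarid2, a component of Polycomb repressive complex PRC2, fell from 1045 CPM to 476 and 368 CPM (adjusted p = 0.0335 in edgeR). Ncoa3, a coactivator of Esrrb in ES cells, fell from 335 CPM to 151 and 115 CPM (adjusted p = 0.0393 in edgeR), a call lost with upper-quartile factors. As for the 10 factors, no gene of the paralog and wider lists was called with limma-voom or with genes of low counts kept. Nr0b1, a nuclear receptor of the pluripotency network, had 0 counts in all 3 libraries, which allows up to 0.220 CPM in B6 and 0.0908 and 0.0882 CPM in NOD 1 and NOD 2.

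**Figure D4:**
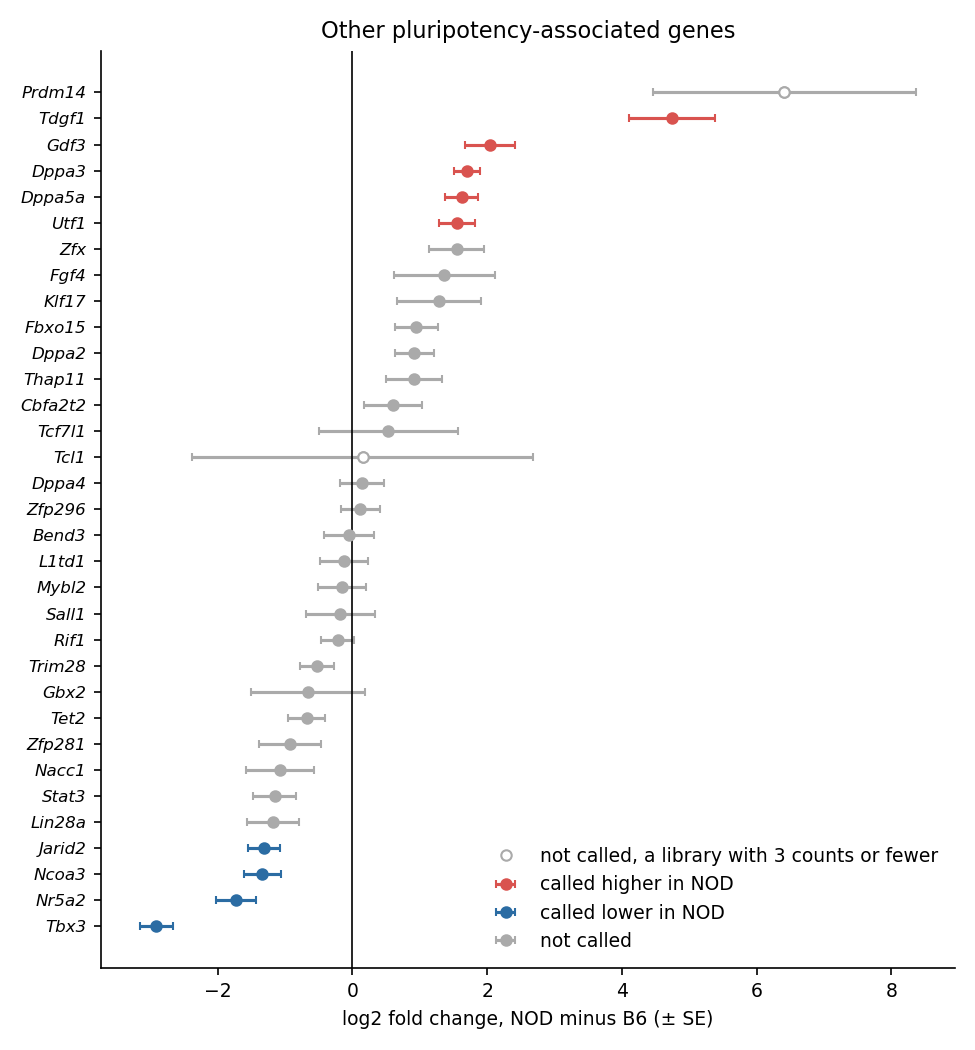
Fitted log2 fold change, NOD minus B6 (± SE), of the 33 tested genes of the wider pluripotency list, coloured by call. The 5 genes called higher run from Utf1 at 1.55 to Tdgf1 at 4.75, and the 4 called lower from Jarid2 at -1.31 to Tbx3 at -2.91. Open symbols mark Prdm14, with 1 count in B6, and Tcl1, with 0 counts in NOD 1.

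Genes that mark the next step, the formative and primed epiblast, were sparse. Of 16 such genes 9 were tested and 0 were called by edgeR, where 17.7% of all genes tested were called. Of these 1, Dnmt3a, had an unadjusted p under 0.05, and it was called by DESeq2 alone of the tests. The median log2 fold change was -0.25. Lef1, Cer1, T and Fgf8 had 0 counts in all 3 libraries, and the summed level of the list was 239 CPM in B6 and 195 and 139 CPM in the NOD libraries. Most of this sum came from the methyltransferases Dnmt3a and Dnmt3b, and Otx2 was at 3.30 CPM in B6 and 8.89 and 11.1 CPM in NOD.

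The libraries also held RNA of the other blastocyst lineages, primitive endoderm and trophectoderm, with 2 of 16 and 3 of 18 tested markers called where 17.7% of all genes tested were. In bulk samples, fewer cells of a type and less RNA per cell cannot be told apart. The 17 primitive endoderm markers summed to 2079 CPM in B6, 1648 CPM in NOD 1 and 1506 CPM in NOD 2, with Foxa2 at 0 counts in all 3. Lrp2 alone went from 1073 CPM in B6 to 618 and 304 CPM in NOD, a larger fall than that of the sum. Dab2 went the other way, from 371 CPM to 651 and 824 CPM. In both NOD libraries 5 tested markers were above and 6 below B6, where 45.3% and 39.4% of all genes tested were. Of the 16 tested (median log2 fold change -0.37), Pdgfra, an early surface marker, was called higher by edgeR (5.50 CPM in B6, 23.6 and 24.6 CPM in NOD; adjusted p = 0.0488), a call that held neither with upper-quartile factors nor with total counts. Gata6, the factor that sets this fate against Nanog, was called lower by edgeR (385 CPM in B6, 91.5 and 130 CPM in NOD; log2 fold change -1.80 ± 0.29, SE; adjusted p = 0.0285). Gata6 thus differed in the direction of Sox2, Klf5 and Sall4.

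The 19 trophectoderm markers summed to 4488 CPM in B6, 5589 CPM in NOD 1 and 4646 CPM in NOD 2. The rise of Dppa1 alone was larger than that of the sum in each NOD library. Of 18 tested, 3 were called higher by edgeR and 0 lower, with a median log2 fold change of -0.04. In both NOD libraries 8 of them were above and 8 below B6, where 45.3% and 39.4% of all genes tested were. With total counts only, 3 were called higher and 3 lower (Eomes, Tfap2c and Krt18). Dppa1 rose from 209 CPM to 1405 and 1034 CPM (adjusted p = 0.0212 in edgeR). Enpep, a surface peptidase, rose from 63.8 CPM to 402 and 284 CPM (adjusted p = 0.0242 in edgeR), and the tight-junction protein Cldn4 from 328 CPM to 886 and 779 CPM (adjusted p = 0.0290 in edgeR). Of the keratins of this epithelium, Krt8 and Krt18 were below B6 and Krt7 above it in both NOD libraries. Krt8 was at 558 CPM in B6 and 324 and 318 CPM in NOD, and Krt18 at 1464 CPM in B6 and 812 and 852 CPM in NOD, both changes being under 2-fold. Cdx2, the defining factor of trophectoderm, was at 84.2 CPM in B6 and 66.9 and 53.8 CPM in NOD. Trophectoderm transcripts were abundant in every library, and the part of lineage composition in the differences of the 10 factors was not tested.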

How the data were processed

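RNA-Seq counts of 3 blastocyst libraries (1 B6, 2 NOD) were analysed as deposited. The authors amplified cDNA with SMART-Seq V4, sequenced single-end reads, used STAR for alignment to mm10 and HOMER for counting over exons, 1 RefSeq transcript being kept for each gene and both strands being counted, without normalization. The tool list names CASAVA 1.8.2 and STAR 2.2.0c, whereas the study's methods give a different STAR version. All libraries were aligned to the same reference genome, and whether reads of each strain aligned equally well was not tested. How reads with several alignments were treated is not given in the sources used here. The header also names other libraries, which were not used here.

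Counts were tested with edgeR 4.0.16 in R 4.3.3 (filterByExpr with minimum count 10, TMM, trended dispersion, quasi-likelihood F test, Benjamini-Hochberg over 14456 genes). There was 1 residual degree of freedom, variances were moderated across genes, and B6 was assumed to vary like NOD. Limits for calls (adjusted p 0.05, 2-fold) were those of the study's ES cell analysis. SEs were obtained from the log2 fold change and the square root of F. Alternatives were DESeq2 1.42.0, limma-voom (limma 3.58.1), other scalings, no filter on low counts and each NOD library left out.

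Members and gene lists were chosen with earlier results of these data known. Named were all members, at most 4 called genes per list and direction (by mean CPM), the paralog with the highest mean FPKM per family and neighbouring genes. Other genes in the text, such as Tdgf1, Laptm5, the keratins, Lrp2, Dab2, Cdx2, Eomes, Tfap2c, Klf9, Pou2f3, Otx2, Dnmt3a, Dnmt3b, Prdm14, Tcl1 and those listed at 0 counts, are outside this rule, their values being known when they were named. Shared 50-base words were counted in GENCODE M21 transcripts with Python 3.11.15. Intervals and floors (3 counts) cover counting error only, since reads carry no molecular identifiers.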

Additional observations from a re-analysis of the deposited data

How the results depend on the processing

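The direction of all 10 factors held in each of the 10 alternatives, whereas the number of calls depended on the test and on the filter on low counts. Against 4 of 10 in the analysis reported, 0 factors were called with limma-voom (lowest adjusted p 0.0679) and 0 with genes of low counts kept (lowest adjusted p 0.0700), and 7 with DESeq2 and 7 with edgeR's older quasi-likelihood method. Over all genes, DESeq2 called 4386, edgeR's older method 3606, limma-voom 0 and the run with low counts kept 0, against 2552. edgeR's older method and edgeR's own single dispersion were chosen after seeing the data. limma-voom and the run without a filter also called 0 genes of the wider, primitive endoderm, trophectoderm and paralog lists, against 9, 2, 3 and 5. DESeq2 called 1 gene of the formative and primed list (Dnmt3a), 5 of primitive endoderm, 8 of trophectoderm and 10 paralogs, and the older method 4, 6 and 8 of the last 3. Total counts only gave 1 primitive endoderm and 6 trophectoderm calls, upper-quartile factors 1 primitive endoderm gene and 3 paralogs, and the single dispersion 6 trophectoderm genes. The median log2 fold change of the factors moved from -1.19 to -1.37 with total counts only, and lay between -1.16 and -1.06 when 1 NOD library was left out, which allows no test. Coding length, which leaves out untranslated bases over which reads were also counted, changed 16 of 30 places in the order by FPKM. No paired analysis was possible because the labels link no B6 library to a NOD library. Depth limits B6 most, since NOD 1 and NOD 2 had 2.71 and 2.89 times its counts.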

Other observations

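Genes next to the factors on the chromosome were read for differences along the locus. Dppa3, called higher in NOD, is the nearest listed gene below Nanog, at a distance of 77294 bases, and Slc2a3, a glucose transporter 13176 bases above Nanog, was at 424 CPM in B6 and 573 and 667 CPM in NOD (log2 fold change 0.55 ± 0.22, SE; adjusted p = 0.141 in edgeR). Eps15l1, an endocytic adaptor 19343 bases above Klf2, was called lower by edgeR, from 51.2 CPM in B6 to 12.9 and 9.37 CPM in NOD (log2 fold change -2.20 ± 0.42, SE; adjusted p = 0.0354), while Klf2 itself was not called. Beside Pou5f1, the MHC class I gene H2-Q10 had 0 counts in B6, which allows up to 0.220 CPM. NOD 1 and NOD 2 had 62 and 98 counts, or 1.88 and 2.88 CPM. The difference was not called (adjusted p = 0.0583 in edgeR). Sequence shared with other genes was not counted for H2-Q10, and whether its reads aligned equally well in both strains was not tested. Tcf19, the other neighbour of Pou5f1, was at 7.34 CPM in B6 and lower in both NOD libraries. Its log2 fold change was -1.71 ± 0.76 (SE), with an adjusted p of 0.164 in edgeR. Triml2, the neighbour of Zfp42, was at 54.6 CPM in B6 and 121 and 95.6 CPM in NOD (adjusted p = 0.0981 in edgeR). The remaining neighbours were not called or were too low to be tested.

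The lists of oocyte and leukocyte genes had low sums, apart from Laptm5. The 11 oocyte genes summed to 42.1 CPM in B6 and 29.2 and 28.3 CPM in NOD. The 7 leukocyte markers other than Laptm5 summed to 0.294, 0.363 and 1.03 CPM, and Ptprc, Lyz2, Fcer1g and Cd79a had 0 counts in all 3 libraries. Laptm5 was at 61.3 CPM in B6 and 21.8 and 22.7 CPM in NOD and was not called (adjusted p = 0.0516 in edgeR).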
